A study of Mus musculus with 6 samples.

Results

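Secreted Wnt antagonists are proteins that cells release to hold down Wnt signalling outside the cell. In mouse knee articular cartilage labelled adseverin knockout or wild type, 10 of their genes were followed. The genes are Dkk1, Dkk2, Dkk3, Frzb, Sfrp1, Sfrp2, Sfrp5, Wif1, Sost and Ccn5 (annotated as Wisp2 in GRCm38 releases), taken by name from the 55401 genes of the deposited count table. All 10 had an identifier in the table and all 10 passed the filter on low counts. RNA sequencing covered 6 libraries of cartilage harvested at 10 weeks of age. The 3 cKO libraries are labelled adseverin knockout and the 3 WT libraries wild type, and mice of both groups had been given tamoxifen at 1.5 mg per 10 g of body weight on each of 5 days from 8 weeks of age. The labels name no Cre driver, deleted part of the gene, strain or sex. The labels number the libraries but name no separate mice, so a p-value measures only the spread between these libraries, which may be technical.

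Wnt ligands bind a Frizzled receptor together with the co-receptor LRP5 or LRP6 and so protect beta-catenin from destruction. Antagonists act at 2 points of this step. The secreted Frizzled-related proteins (Sfrp genes and Frzb) and Wif1 bind the ligands themselves, whereas Dkk1, Dkk2 and sclerostin, the product of Sost, bind the co-receptors. Dkk3 is a divergent Dickkopf protein, and Ccn5 is a matricellular protein of the CCN family, first described as a Wnt-induced gene. In joints, Wnt activity that is too high or too low is known to disturb cartilage.

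Read totals ran from 22664828 to 31014996 in cKO and from 23018642 to 27576134 in WT. Scin, which encodes adseverin, an actin-severing protein, measured 39.1, 29.9 and 29.4 CPM (counts per 1e+06 reads after TMM scaling) in cKO libraries and 186, 185 and 219 CPM in WT libraries, so each library matched its label. All 12 chondrocyte markers were detected, led by Chad, a cartilage matrix protein, and their summed level was 53760 to 60170 CPM in cKO and 49180 to 52400 CPM in WT. The tissue also held RNA of bone, blood and fibrous tissue, and those lists are given beside the results they touch. Library WT 2 stood apart, with 1316 CPM of skeletal muscle markers against 24.1 to 222 CPM in cKO libraries and 29.0 and 53.6 CPM in the other WT libraries. In bulk tissue, fewer cells of a type and less RNA per cell cannot be told apart.

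The promoters of 7 of the 10 genes were matched by symbol (RefSeq, GRCm38.p6), as the 250 bases before the RefSeq transcription start. Of the Dkk1, Frzb and Wif1 windows, 169, 229 and 44 bases lie in exons of the GENCODE annotation, which start farther upstream, and so only bases outside those exons, with any match that crosses into one, are shown here. The stretches are Dkk1, higher in every cKO library, Sfrp2, lower in every cKO library, and Wif1, the most abundant. Each reads 5′ to 3′ on the gene's own strand, at chr19:30549665-30549746 (minus strand) for Dkk1, chr3:83766071-83766320 (plus strand) for Sfrp2 and chr10:121033754-121033959 (plus strand) for Wif1. Capitals mark CTTTGA or its reverse complement TCAAAG, a core bound by the TCF/LEF factors that carry Wnt signals to DNA. Other forms of the TCF/LEF core were not counted as such.
Dkk1: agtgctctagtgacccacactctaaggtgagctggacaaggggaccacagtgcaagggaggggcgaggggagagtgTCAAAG
Sfrp2: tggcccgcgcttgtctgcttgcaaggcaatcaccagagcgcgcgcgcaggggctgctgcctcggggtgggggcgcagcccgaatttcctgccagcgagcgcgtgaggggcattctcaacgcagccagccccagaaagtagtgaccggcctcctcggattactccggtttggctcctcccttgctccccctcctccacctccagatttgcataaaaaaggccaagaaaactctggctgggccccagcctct
Wif1: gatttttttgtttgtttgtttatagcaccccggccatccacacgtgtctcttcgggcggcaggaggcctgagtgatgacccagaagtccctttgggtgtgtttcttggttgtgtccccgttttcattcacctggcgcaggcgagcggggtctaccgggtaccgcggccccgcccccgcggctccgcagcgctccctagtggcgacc

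A second search used CTTTGT, a core of SOX factor sites, and both searches covered both strands. CTTTGA occurred in the full windows of 2 of the 7 genes. Dkk1 had 2 matches, at 174 and 117 bases before the RefSeq start, the first of them shown above, and Frzb had 1 match at 95 bases. The Dkk1 match at 117 bases and the Frzb match lie inside GENCODE exons, and the Dkk1 match at 174 bases crosses into one. Over 32851 RefSeq promoter windows of the same length, 13.8% held CTTTGA. The SOX core occurred in Dkk1 at 98 bases, inside a GENCODE exon, and in Dkk2 at 80 bases before the start, against 16.5% of all windows. The Sfrp2, Sfrp5, Sost and Wif1 windows held neither run of letters. A match describes the letters and not a bound site.

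The antagonists differed widely in level in this tissue, with Wif1 far above the others and Frzb next. Levels compared between genes are RPKM, that is CPM per kilobase of exon. Wif1 (ENSMUSG00000020218, GRCm38 chromosome 10, 121033960 to 121100650) measured 2803, 2326 and 2152 RPKM in cKO libraries and 2348, 2473 and 2554 RPKM in WT libraries. It ranked 12th by mean RPKM among 13652 tested protein-coding genes, and between 11 and 13 in single libraries. Wif1 made up 81.4% to 87.1% of the summed RPKM of the 10 genes in cKO and 84.4% to 86.5% in WT.

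Frzb (ENSMUSG00000027004, chromosome 2, 80411970 to 80447625) came second at 220.2 ± 34.5 RPKM (SD over 6 libraries), 11.1 times below Wif1 and at rank 142. A middle group followed, with mean levels of 61.0 RPKM for Sfrp5, 54.1 for Ccn5, 41.9 for Dkk3, 36.7 for Dkk1 and 28.0 for Sost. Neighbours within the middle group overlapped in range and did not keep their order in every library: Sfrp5 exceeded Ccn5 in 4 of 6 libraries, Ccn5 exceeded Dkk3 in 3, Dkk3 exceeded Dkk1 in 4 and Dkk1 exceeded Sost in 5. The order also differed by group. Sfrp5 exceeded Ccn5 in 3 cKO libraries but 1 WT library, and Dkk3 exceeded Dkk1 in 1 cKO library but 3 WT libraries. Mean levels were 35.6 RPKM in cKO and 72.7 RPKM in WT for Ccn5, and 44.7 and 28.6 RPKM for Dkk1. Sfrp2, Sfrp1 and Dkk2 were low by mean, at 4.83 ± 7.26, 0.806 ± 0.244 and 0.216 ± 0.233 RPKM (SD over 6 libraries), which are ranks 6291, 11141 and 12945. The Sfrp2 mean pools unlike groups, 0.789 RPKM in cKO and 8.87 RPKM in WT. Its rank in single libraries ran from 2304 to 12587. Wif1 and Frzb overlapped with no other gene of the set in any library.

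**Figure D1:**
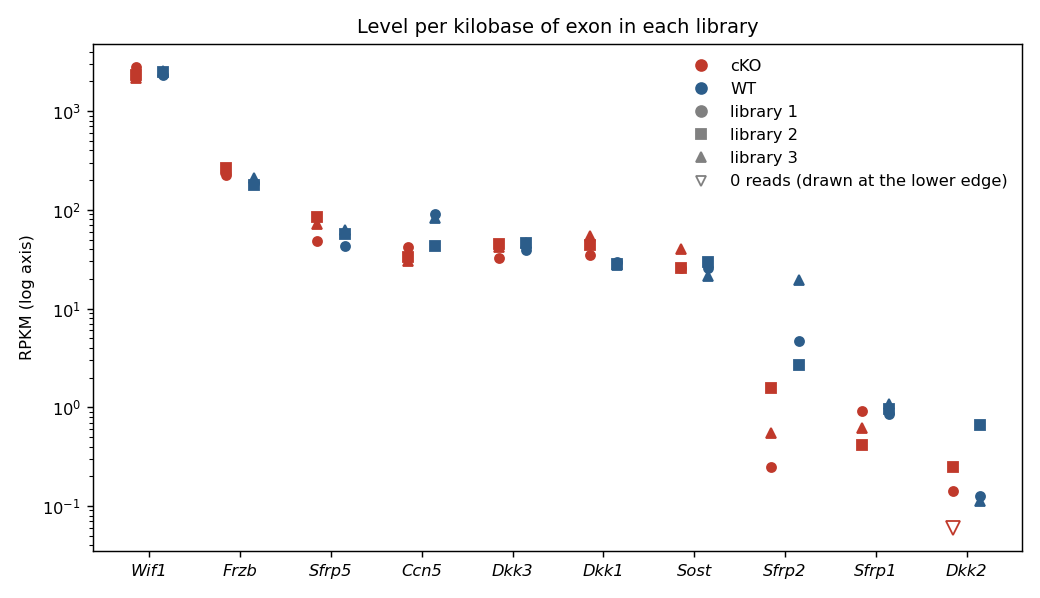
RPKM on a log axis for the 10 antagonist genes, ordered by mean level, in each cKO (red) and WT (blue) library. Wif1 and Frzb stand above the 5 genes of the middle group, and Sfrp2 and Dkk2 are spread most widely; Dkk2 had 0 reads in cKO 3, drawn as an open triangle at the lower edge.

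The 10 genes together outweighed the Wnt ligands by a wide margin in both groups. Their summed level was 2895 ± 293.5 RPKM in cKO and 2886 ± 129 RPKM in WT (SD, n = 3 each), against 31.7 ± 2.02 RPKM in cKO and 29.8 ± 3.20 RPKM in WT for the 19 ligand genes. The ratio of these sums was 78.9 to 100 in cKO libraries and 87.9 to 110 in WT libraries. The 10 genes took 0.667% to 0.794% of all reads in cKO and 0.697% to 0.744% in WT. Without Wif1, the other 9 genes summed to 468 ± 46.8 RPKM in cKO and 427 ± 42.5 RPKM in WT. The ranges of all these sums overlapped between the groups.

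Between the groups, the antagonists did not move in one direction: Dkk1 and Frzb were higher in every cKO library than in any WT library, and Sfrp2 and Ccn5 were lower. The set was chosen by gene name with the read counts of this same comparison, cKO against WT, already known, so the values that follow describe the libraries and are no independent test. In the edgeR quasi-likelihood fit over all 16260 tested genes, 0 of the 10 passed a Benjamini-Hochberg adjusted p of 0.05, where 0.00615% of all tested genes (Scin alone) did. Their adjusted p-values in that edgeR fit ran from 0.596 to 0.989. At an unadjusted p under 0.05 there were 4 of the 10, against 6.5% of all tested genes. Groups did not overlap for 2 members on the higher side and 2 on the lower side, where 6.41% and 5.89% of all tested genes behaved so. With DESeq2, 2 members passed, Dkk1 higher (adjusted p = 0.0209) and Ccn5 lower (adjusted p = 0.00597), against 0.444% of the genes to which DESeq2 gave an adjusted p (0.216% higher and 0.227% lower). By sign, 4 members lay above 0 and 6 below, with a median log2 fold change of -0.08, beside 50.6% of all tested genes above 0 and a median of 0.0037.

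Of the co-receptor inhibitors, Dkk1 (ENSMUSG00000024868, chromosome 19, 30545863 to 30549665), whose promoter is shown above, an LRP5 and LRP6 ligand and itself a known beta-catenin target, measured 85.5, 108 and 132 CPM in cKO libraries and 72.3, 68.8 and 67.4 CPM in WT libraries. The 3 WT libraries lay close together and every cKO library was above them, cKO 3 most and cKO 1 least. The mean was 109 ± 23.1 CPM in cKO and 69.5 ± 2.53 CPM in WT (SD, n = 3 each), a ratio of 1.56 and a log2 fold change of 0.64 ± 0.15 (SE), which was 0.48 without cKO 3. The coefficient of variation was 21.3% in cKO and 3.64% in WT.

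Sost, the sclerostin gene and a marker of osteocytes, measured 53.6, 53.1 and 82.3 CPM in cKO libraries and 52.9, 61.7 and 43.7 CPM in WT libraries. A single library, cKO 3, was high, and the groups overlapped. Its log2 fold change was 0.26 ± 0.20, and 0.017 without cKO 3 or 0.14 without WT 3. The osteoblast and osteocyte marker list, led by Ibsp, with 10 of 11 genes tested and Fgf23 at 0 reads in 5 of 6 libraries, had 9 genes above 0 and a median log2 fold change of 0.30, which was 0.47 without cKO 2 and 0.13 without both WT 2 and cKO 3. Its summed level was 30770 to 34230 CPM in cKO and 27200 to 30560 CPM in WT. Ibsp made up most of that sum. Without Ibsp, a split made after seeing the data, the other 10 genes summed to 5010, 4181 and 6402 CPM in cKO libraries and 5048, 4017 and 3943 CPM in WT libraries, and cKO 3, the library with the most Sost, was then the highest. Bglap, the osteocalcin gene, measured 1452, 957 and 2135 CPM in cKO and 1426, 1255 and 1111 CPM in WT. Within WT, the order of Sost was not kept. Library WT 2 had the most Sost, but neither the highest sum without Ibsp nor the most Bglap. For Sost, that sum and Bglap alike, cKO 2 and WT 3 were the lowest libraries of their groups. The part of bone RNA in the Sost and Dkk1 values was not tested.

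Dkk3 measured 110.5, 150.3 and 141 CPM in cKO libraries and 130.4, 155.5 and 156 CPM in WT libraries. The ranges overlapped, with cKO 1 lowest, and the log2 fold change was -0.14 ± 0.13, or -0.015 without cKO 1. Dkk2 was barely detected, with 12, 28 and 0 reads in cKO libraries and 13, 56 and 11 reads in WT libraries. Its fitted log2 fold change of -1.17 ± 1.19 was carried by WT 2 and turned to 0.14 without it. The low counts of Dkk2 do not allow a direction to be read at this depth.

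Among the proteins that bind Wnt ligands, Frzb, also called secreted Frizzled-related protein 3, measured 738, 858 and 814 CPM in cKO libraries and 611, 575 and 681 CPM in WT libraries. Each cKO library was above each WT library, and cKO 1 and WT 3 were the nearest pair. The mean was 803 ± 61.0 CPM in cKO and 622 ± 53.9 CPM in WT (SD, n = 3 each), a ratio of 1.29 and a log2 fold change of 0.37 ± 0.09. Frzb was also the steadiest gene of the set: its SD of log2 CPM within groups was 0.117, at the 14.7th percentile of tested genes, whose median was 0.272. Of the chondrocyte markers, none at 0 reads, 11 of 12 also lay above 0, beside 50.6% of all tested genes. The exception, Acan, which encodes aggrecan, had the smallest p of that list and lay at -0.61 ± 0.13 on the log2 scale, below WT in every cKO library. Groups did not overlap for 5 markers on the higher side and 1 on the lower side, beside 6.41% and 5.89% of all tested genes. The summed marker levels did not overlap either. Col2a1 alone gave 15910 to 20600 CPM of the sum in cKO and 14450 to 15300 CPM in WT. The part of the chondrocyte markers in the Frzb values was not tested.

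Wif1, which binds Wnts through its WIF domain, measured 6803, 5645 and 5223 CPM in cKO libraries and 5699, 6003 and 6198 CPM in WT libraries. The WT range lay wholly inside the cKO range, with cKO 1 the highest and cKO 3 the lowest of all 6. The mean was 5890.2 ± 818 CPM in cKO and 5967 ± 252 CPM in WT (SD, n = 3 each). The log2 fold change was -0.019 ± 0.10, and leaving out single libraries moved it between -0.13 and 0.06. The most abundant antagonist thus showed no difference larger than its spread.

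Sfrp5 measured 92.5, 159 and 135 CPM in cKO libraries and 82.6, 108 and 118 CPM in WT libraries. Libraries cKO 2 and cKO 3 were above all WT libraries and cKO 1 was among them. The log2 fold change was 0.33 ± 0.20, but 0.15 without cKO 2, 0.19 without WT 1 and 0.52 without cKO 1. Sfrp1 was low, with 90, 55 and 65 reads in cKO libraries and 104, 96 and 124 reads in WT libraries. In CPM it measured 3.98, 1.81 and 2.72 in cKO and 3.70, 4.21 and 4.71 in WT, so that cKO 1 lay within the WT range. The log2 fold change was -0.57 ± 0.37, but -0.33 without cKO 2 and -0.89 without cKO 1.

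Sfrp2 (ENSMUSG00000027996, chromosome 3, 83766321 to 83774316), a gene known from fibroblasts, had 12, 103 and 28 reads in cKO libraries and 282, 131 and 1093 reads in WT libraries. That is 0.531, 3.39 and 1.17 CPM in cKO and 10.0, 5.75 and 41.5 CPM in WT. All cKO libraries lay below all WT libraries, but WT 3 stood far above the other WT libraries, and the highest and lowest libraries differed 78.2-fold. The log2 fold change was -3.46 ± 0.87, but -2.20 without WT 3 and -4.47 without cKO 2. The SD of log2 CPM within groups was 1.39, at the 93.3rd percentile of tested genes. Sfrp2 shares 347 exonic bases with the antisense gene Gm26771, which held 0 to 3 reads per library. No source used here gives the strand setting of the counting, so reads from the shared bases cannot be told apart.

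Ccn5 (ENSMUSG00000027656, chromosome 2, 163820861 to 163833146) measured 81.9, 64.4 and 58.9 CPM in cKO libraries and 176, 83.6 and 160.2 CPM in WT libraries. The groups did not overlap, but WT 2 was close to cKO 1 while WT 1 and WT 3 were high. The mean was 68.4 ± 12.0 CPM in cKO and 139.9 ± 49.4 CPM in WT (SD, n = 3 each), a ratio of 0.489. The log2 fold change was -1.03 ± 0.26, and between -1.30 without WT 2 and -0.84 without WT 1.

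Sfrp2 and Ccn5 are both expressed by fibroblasts, so the fibroblast, synovium and tendon markers were set beside them. Of 14 markers, 13 were tested, Tnmd had 0 reads in 3 of 6 libraries, 9 lay below 0 and 4 above, and the median log2 fold change was -0.16. The summed level, led by the fibrillar collagen gene Col1a1, was 15070, 14600 and 20460 CPM in cKO libraries and 20930, 16250 and 16100 CPM in WT libraries, so the groups overlapped. Col1a1 and Col1a2, which bone also makes, carried that sum. Without them, a split made after seeing the data, the other 12 markers summed to 3055, 5053 and 3264 CPM in cKO libraries and 4390, 4924 and 4450 CPM in WT libraries, so that cKO 1 and cKO 3 were the lowest and cKO 2 the highest. Single markers went both ways: the log2 fold change was -1.15 for Col14a1, -0.82 for Thy1 and -0.67 for Col3a1, and 0.32 for Mkx, 0.09 for Fmod, 0.04 for Col1a2 and 0.03 for Scx. The part of fibrous tissue in the Sfrp2 and Ccn5 values was not tested.

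**Figure D2:**
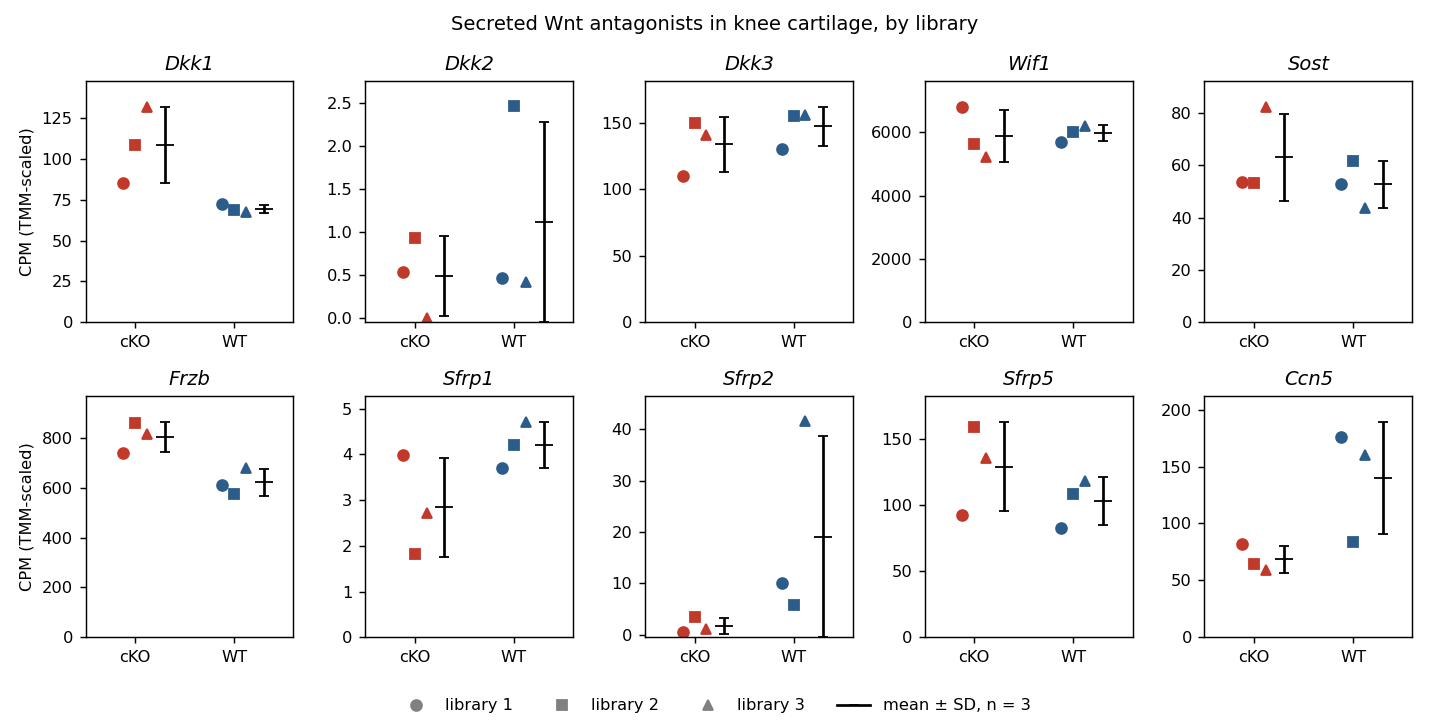
CPM (TMM-scaled) of each antagonist gene in the cKO (left) and WT (right) libraries, with the library number as marker shape and the mean ± SD of 3 libraries as bars. Dkk1 and Frzb show every cKO library above the WT libraries, Ccn5 and Sfrp2 every cKO library below them, and the other 6 genes overlap.

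**Figure D3:**
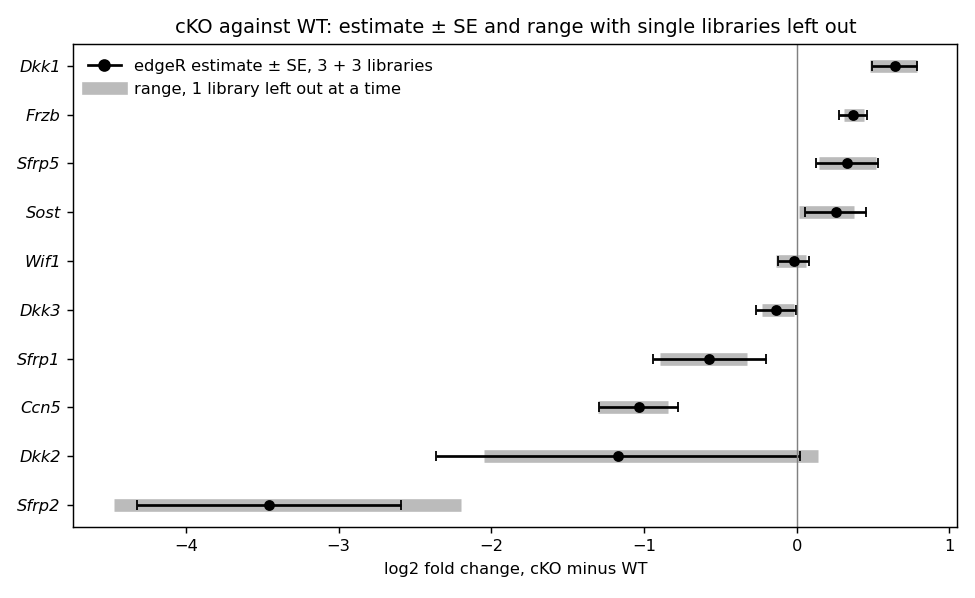
Log2 fold change, cKO minus WT, with its SE (black) and the range of estimates when 1 library was left out at a time (grey). Dkk1, Frzb, Sfrp5 and Sost stay above 0 and Ccn5, Sfrp1, Sfrp2 and Dkk3 below 0 throughout, while the ranges of Wif1 and Dkk2 cross 0. Sost comes as near to 0 as 0.017 and Dkk3 as near as -0.015.

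Libraries of a group did not rank the antagonists alike. Within cKO, library 1 was lowest for Dkk1, Dkk3, Frzb, Sfrp2 and Sfrp5 and highest for Wif1, Sfrp1 and Ccn5. Library cKO 3 was highest for Dkk1 and Sost and lowest for Wif1, Ccn5 and Dkk2, and cKO 2 was highest for Dkk2, Dkk3, Frzb, Sfrp2 and Sfrp5 and lowest for Sfrp1 and Sost. Within WT, library 1 was lowest for Wif1, Dkk3, Sfrp1 and Sfrp5 and highest for Dkk1 and Ccn5, and WT 3 was highest for Wif1, Frzb and the 3 Sfrp genes. Library WT 2 was highest for Dkk2 and Sost and lowest for Frzb, Sfrp2 and Ccn5.

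**Figure D4:**
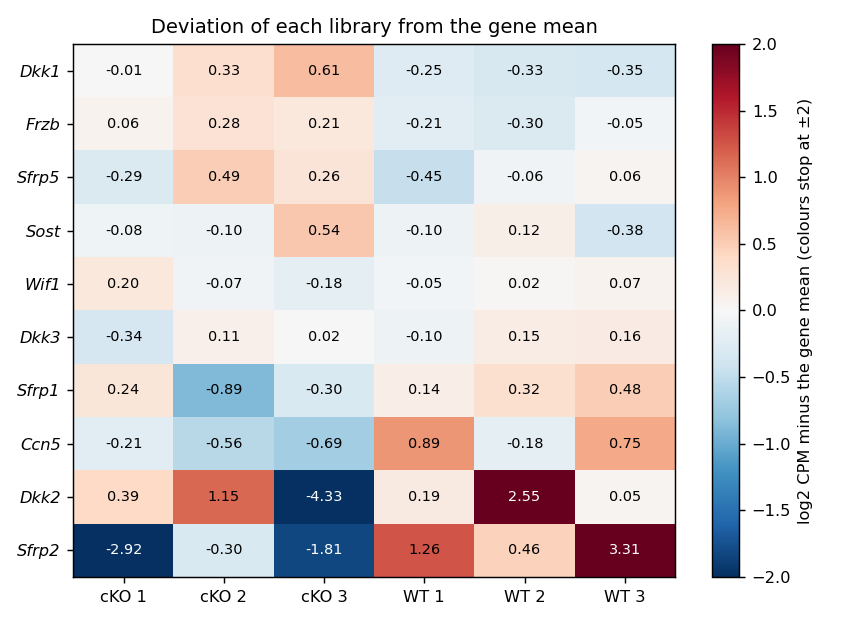
Log2 CPM of each library minus the mean of the gene over the 6 libraries, for the 10 antagonist genes, with cKO libraries at the left; colours stop at ±2. Dkk1 ranges from -0.35 in WT 3 to 0.61 in cKO 3 and Ccn5 from -0.69 in cKO 3 to 0.89 in WT 1, whereas Wif1 stays within 0.20 of its mean.

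The rest of the Wnt pathway was read from the same fit, from lists of 82 genes by role, of which 63 were tested. By edgeR 0 of 63 passed the adjusted threshold, and DESeq2 and both limma fits also called 0. At an unadjusted p under 0.05 there were 4 higher and 4 lower, beside 3.54% and 2.96% of all tested genes. Groups did not overlap for 5 of the 63 on the higher side and 6 on the lower side, beside 6.41% and 5.89% of all tested genes. The median log2 fold change of the 63 genes was 0.014, with 35 above 0 and 28 below. The genes named from these lists are described and did not pass the test.

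Of 8 further secreted antagonists, 3 were tested and Dkk4 and Cer1 had no reads. Sfrp4, the most abundant, measured 292, 293 and 289 CPM in cKO libraries and 417, 343 and 295 CPM in WT libraries, so it too lay lower in each cKO library, with WT 3 close to them. Its mean over the 6 libraries, 77.0 ± 12.2 RPKM (SD) at rank 519, lay between those of Frzb and Sfrp5. Igfbp4, an IGF-binding protein reported to inhibit Wnt receptors, had a log2 fold change of -0.40 ± 0.13. Notum, an enzyme that removes the lipid from Wnt ligands and is a known Wnt target, had one of 0.61 ± 0.21, from 15.1, 14.9 and 15.6 CPM in cKO and 7.68, 9.96 and 12.3 CPM in WT.

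Of 19 ligands, 8 were tested and 6 had no reads, and the tested ones split 4 above and 4 below 0. Wnt5b, the most abundant, measured 59.3, 54.7 and 61.8 CPM in cKO libraries and 57.3, 36.4 and 52.4 CPM in WT libraries. Wnt11 and Wnt16 did not overlap between the groups, in opposite directions, with log2 fold changes of -0.66 ± 0.22 and 0.96 ± 0.42. Wls and Porcn, which carry and acylate the ligands, stood at 0.07 ± 0.08 and 0.10 ± 0.18 on the log2 scale.

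Of 18 receptors and co-receptors, 17 were tested, with a median log2 fold change of 0.011. Fzd9, the most abundant Frizzled, measured 333, 369 and 366 CPM in cKO libraries and 247, 308 and 331 CPM in WT libraries, a log2 fold change of 0.27 ± 0.11. Lrp6, the co-receptor that Dkk1 and sclerostin bind, measured 82.5, 88.2 and 76.9 CPM in cKO and 97.9, 93.8 and 107 CPM in WT, a log2 fold change of -0.27 ± 0.09. Lrp4, a sclerostin-binding receptor, stood at 0.36 ± 0.26. R-spondins and their receptors, which raise Wnt sensitivity, had 6 of 7 genes tested and a median of 0.031; the most abundant was Lgr6 at -0.015 ± 0.24, and Rspo3, Lgr5 and Lgr4 stood at 0.72 ± 0.51, -0.82 ± 1.25 and 0.05 ± 0.12.

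Of the cytoplasmic and nuclear transducers, all 14 were tested, with a median of 0.062, or 0.0017 without cKO 1. Tcf7l2, a TCF factor, and Gsk3b, a kinase of the destruction complex, did not overlap and stood at 0.25 ± 0.08 and 0.20 ± 0.08 on the log2 scale, Bcl9, a beta-catenin cofactor, at 0.65 ± 0.30, Csnk1a1, a kinase with the highest CPM of this list, at -0.14 ± 0.08, also without overlap, and Ctnnb1, which encodes beta-catenin, at 0.10 ± 0.09. Of 14 feedback and target genes, 13 were tested, 5 above and 8 below 0, with a median of -0.24, or -0.13 without cKO 2. Lef1, a TCF/LEF factor and target, measured 19.5, 14.9 and 10.3 CPM in cKO libraries and 22.5, 21.7 and 24.5 CPM in WT libraries. Axin2, the most widely used readout of beta-catenin signalling, was low and overlapped, at 2.26, 1.51 and 2.13 CPM in cKO and 1.64, 2.54 and 3.04 CPM in WT. Ccn4, the most abundant of this list and a relative of Ccn5, stood at 0.18 ± 0.22, Apcdd1 at 0.85 ± 0.47 and Twist1 at -0.30 ± 0.17.

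**Figure D5:**
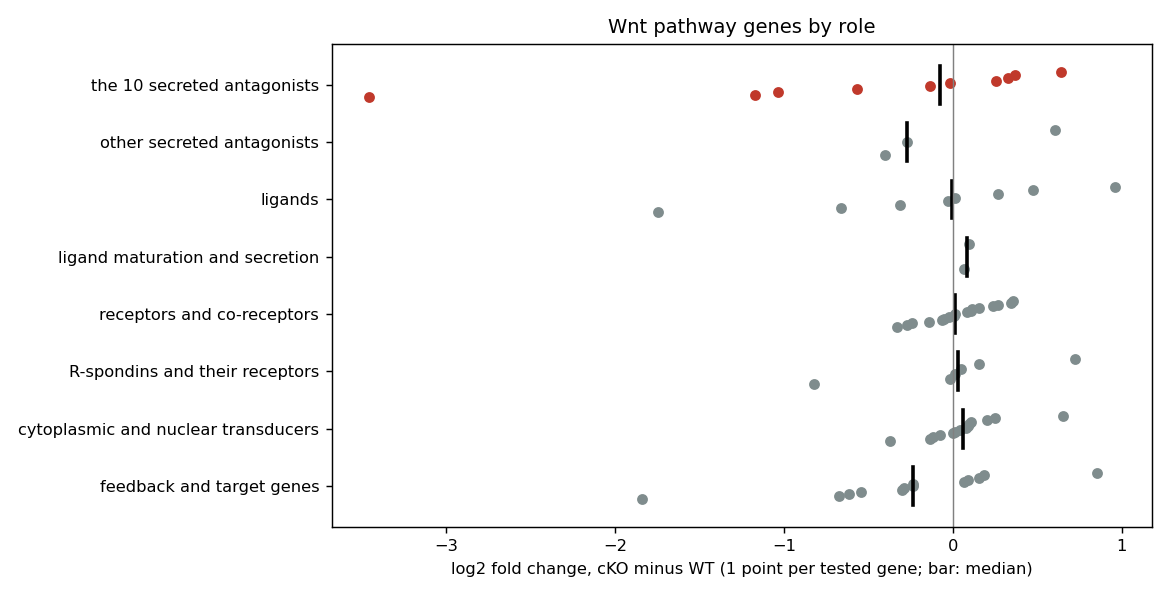
Log2 fold change, cKO minus WT, of each tested Wnt pathway gene (1 point per gene) by role, with the 10 secreted antagonists in red and a bar at each median. The medians lie between -0.27 and 0.08, and the 10 antagonists run from -3.46 for Sfrp2 to 0.64 for Dkk1.

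The cell type lists also varied between libraries, and the counts above or below 0 stand beside 50.6% of all tested genes above 0. The edgeR fit called 0 of their 96 tested markers, beside 0.00615% of all tested genes. An unadjusted p under 0.05 was found for 18 of the 96, beside 6.5% of all tested genes. DESeq2 called 4 of 97, among them Ihh, Clu and Acan, beside 0.444% of the genes to which it gave an adjusted p. Chondrocyte markers had a median log2 fold change of 0.21, with Acan alone below 0. Superficial zone markers had 6 of 8 below 0 (median -0.13, but -0.014 without cKO 2), with sums of 27180 to 28610 CPM in cKO and 29670 to 34320 CPM in WT, and were led by Cilp. Hypertrophic chondrocyte markers lay 3 above and 3 below 0, with sums of 4828 to 5340 CPM in cKO and 4945 to 5545 CPM in WT, led by Col10a1. In that list an unadjusted p under 0.05 was found for 2 higher and 1 lower, beside 3.54% and 2.96% of all tested genes.

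Macrophage markers lay below 0 for 7 of 7 genes, with sums of 404 to 572 CPM in cKO and 501 to 720 CPM in WT, led by Lyz2. Erythroid markers lay above 0 for 7 of 7, at 2874 to 4391 CPM in cKO and 2755 to 3092 CPM in WT, led by Hbb-bs. Neutrophil markers lay above 0 for 6 of 7, at 1253 to 2628 CPM in cKO and 1053 to 1896 CPM in WT, led by Ngp. Endothelial markers summed to 33.1 to 65.8 CPM in cKO and 43.0 to 68.5 CPM in WT, led by Egfl7, and pericyte and smooth muscle markers to 266 to 305 CPM in cKO and 212 to 349 CPM in WT, led in CPM by Cspg4.

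Skeletal muscle markers were led by Acta1 and highest in WT 2, as given above. Adipocyte markers, led by Cfd, summed to 19.7 to 32.7 CPM in cKO and 83.5, 162 and 22.04 CPM in the WT libraries, with Lep at 0 reads in all 6, and WT 2 was again highest. The same library held the highest Dkk2 and the lowest Ccn5, Frzb and Sfrp2 of the WT group. Without WT 2, the log2 fold change was -1.30 for Ccn5, 0.63 for Dkk1, 0.31 for Frzb and -3.90 for Sfrp2. The part of these cell types in the antagonists' values was not tested.

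The genes whose pattern over the 6 libraries was nearest to that of an antagonist were looked up among 10430 tested genes with a mean of at least 5 CPM, by the root mean square difference of log2 CPM centred on each gene's mean. For Wif1, whose own deviation was 0.119, they were Sel1l (0.030), Alkbh6 (0.034) and Ankhd1 (0.038). For Dkk1, with a deviation of 0.36, those named are Slc25a27 (0.089) and Otub2 (0.104). For Ccn5, with a deviation of 0.609, they were Zfp827 (0.147), Frs3 (0.178) and Zfp13 (0.22).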

How the data were processed

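For 6 libraries the authors deposited raw counts of reads per Ensembl gene. According to the submitters' processing notes, the tools included featureCounts 2.0.1 with HISAT2 2.2.1 on GRCm38, besides DESeq2 1.30.1, FastQC 0.11.9 and R 4.0.5; their settings, roles, annotation release and strand mode stay unknown here. Per the labels' protocols, full-length cDNA was made with a kit for ultra-low RNA input. A further table from the authors gives a normalized signal (deposited for 23239 genes), equal to the counts divided by a constant per library: whole reads were recovered from 100% of its values above 0, within 0.001 of a read, and edgeR called 1 gene on them, as on the counts.

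Groups and numbers come from the sample titles. Symbols were found for 55141 identifiers; coordinates and exon lengths come from a GRCm38 annotation. Libraries of a group differed beyond sampling noise (chi-square per degree of freedom 31.4 to 36.5, genes with at least 50 reads). Genes were filtered with filterByExpr, scaled with TMM and tested with edgeR 4.0.16 (glmQLFit and glmQLFTest, group only, R 4.3.3) with Benjamini-Hochberg adjustment over 16260 genes. SE is the log2 fold change divided by the square root of F. Log2 CPM used an offset of 0.5 reads. The script was checked on simulated counts. Single-gene permutation tests of 3 against 3 cannot go below 0.1 and were not used.

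Members and lists were chosen with earlier results of these data known. Named were the 10 members, Scin, the most abundant gene and up to 3 genes of smallest p per Wnt list, Axin2, Lef1, Ctnnb1 and the most abundant gene of each cell type list. The 3 nearest genes were named for the most abundant member and the member of smallest p in each direction. Acan, Bglap, Thy1, Col3a1, Col14a1, Col1a2, Mkx, Fmod, Scx and markers called by DESeq2 were chosen after their values were seen. Some genes that these rules select are not reported here. Alternatives were RLE factors, library sizes alone, other filters, DESeq2 1.42.0, limma 3.58.1 (voom, and trend on log2 of that signal plus 1), the replicate block, leaving out libraries and, added after seeing the data, the recovered reads.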

Additional observations from a re-analysis of the deposited data

How the results depend on the processing

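Of 159 alternative estimates for single antagonist genes, 151 kept their direction and side of the threshold. The recovered reads equal the counts, so their estimates for each gene and list repeat the main fit. They were bound to agree and add no support, though they are included in these counts and in those of the list medians below. DESeq2 put Dkk1 and Ccn5 past it, so that it called 2 members where edgeR called 0. The estimate turned for Dkk2 without WT 2 (0.14) and with WT 2 and cKO 3 both left out (0.72), and it lay between -2.05 and 0.14 over the omissions of 1 library. It turned for Wif1 without cKO 2 (0.011), cKO 3 (0.062) or WT 3 (0.0098) and with WT 2 and cKO 3 both left out (0.061), with a range of -0.13 to 0.062 over single libraries left out. The median of the members was -0.14 to 0.06 with single libraries left out and 0.10 with WT 2 and cKO 3 both left out, where the sign of Dkk2 turned. Of the alternative medians of the Wnt and cell type lists, 291 stayed within their spread and 13 moved, among them ligands (-0.32 with WT 2 and cKO 3 both left out, 0.21 without cKO 2), macrophage (-0.74 without cKO 2) and skeletal muscle (1.59 without WT 2). Genes called numbered 1 in the edgeR fit, 0 higher and 1 lower. Without a filter on low counts they were 3 (1 higher, 2 lower), and with DESeq2 82 (40 higher, 42 lower). With single libraries left out there were 1 to 2, all lower, and with WT 2 and cKO 3 both left out 0, where Scin had an edgeR adjusted p of 0.0536. The cause was not tested, beyond fewer libraries. Deviations of same-numbered libraries correlated at -0.015 to 0.060, those of other pairs at -0.057 to 0.044. Not every library correlated best with its own number. Values this small, from 3 libraries a group, cannot show whether the numbers pair the samples. With the number as a replicate block, 1 gene and 0 members were called. Genes at the level of Dkk2 and Sfrp1 are limited by depth. With 3 libraries a group, small changes cannot be resolved.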
